A study of Mus musculus with 8 samples.

Results

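The 9 genes described here, Calb1, Calb2, Pcp4, Camk2a, Camk2b, Camk2d, Camk2n1, Calm2 and Calm3, encode proteins that bind calcium, hand the calcium signal on through calmodulin or answer it as calmodulin-dependent kinases. They were taken by name from the 31053 genes of the deposited count tables, and each was followed through progenitors, neuroblast stages, Reln-expressing neurons and glia of the dentate gyrus. The cells came from 8-week-old Nestin-GFP mice, in which the Nestin promoter drives GFP. Control mice had a sham craniotomy and TBI mice a unilateral controlled cortical impact, so a craniotomy is shared by both groups. On day 15 after surgery the ipsilateral dentate gyri were dissected, GFP-positive cells without propidium iodide were sorted, and 3′ RNA libraries were made with the 10x Genomics v3 chemistry. The labels list 4 animals for each condition, while the methods of the study give a larger number for each. Mice of the same group were pooled ahead of capture, which left 1 library per condition. For this reason no test between Control and TBI was possible. Every interval given is a 95% interval for counting error only, which says nothing of how animals differ. Intervals of levels and ratios count each UMI as independent, so they also leave out the spread between cells. In pooled sorted cells, a library cannot show whether a value came from 1 animal or from all of them.

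Calcium entering a neuron is either taken up by buffers or read by sensors. Calretinin (Calb2) and calbindin (Calb1) are cytosolic buffers, and in the dentate gyrus calretinin is widely used to mark young postmitotic granule neurons and calbindin to mark mature ones. Calmodulin, which Calm2 and Calm3 encode, is the general sensor, and PCP4 is a small protein that alters how calmodulin binds and releases calcium. Calcium-loaded calmodulin turns on CaM kinase II, whose subunits include the alpha (Camk2a), beta (Camk2b) and delta (Camk2d) forms, the first of these being abundant in mature excitatory neurons. Camk2n1 encodes an inhibitor of CaM kinase II.

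The Control library held 24723113 unique molecular identifiers (UMIs, tags that mark single captured RNA molecules) in 3086 barcodes and the TBI library 31543330 in 5081 barcodes. Of these, 3048 Control and 5033 TBI cells passed the filter on RNA content, with a median of 6933 and 5676 UMIs per cell. The libraries shared 3 barcode sequences. The part of the study's source data at hand listed 356 barcodes for Control and 320 for TBI. All 356 were in the Control table and all 320 in the TBI table, with 0 found in the other table. Clusters were built without the 9 genes and without the wider calcium list given further on. They were named from marker genes outside the 9, of which S100b, an astroglia marker, is also on the wider list. Each name below thus stands for a cluster with the markers of that cell type ("X-like"). The clusters made 15 populations. In this order, 6 of them, cycling progenitors, radial glia-like (RG-like) progenitors, early, intermediate and late neuroblasts and immature granule neurons, are called the stages, and the last 4 of these together are called the granule lineage (565 Control and 1008 TBI cells). Along the stages the cell numbers were 167, 149, 161, 145, 136 and 123 in Control and 172, 223, 300, 250, 231 and 227 in TBI. In the cluster of immature granule neurons, late neuroblast markers had a higher mean standardized level (1.65) than its own markers (1.39). It took its name from 3 of its own markers among its 10 leading genes. The other 9 populations were immature granule neurons of low RNA content, Reln neurons, astroglia, astroglia of low RNA content, oligodendrocyte progenitors (OPC), oligodendrocytes, endothelial cells, mural cells and microglia, and 119 cells in clusters near late neuroblasts and near oligodendrocytes stayed unnamed. Median UMIs per cell were lower in TBI than in Control at each of the 6 stages, for example 7329 against 9761 in immature granule neurons, so levels are given as UMIs per 1000000 (CPM) of all UMIs except those of Malat1.

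Between early neuroblasts and immature granule neurons, which of these genes a cell transcribed differed strongly, and in the same way in both libraries. Calb2 and Camk2b were far higher in immature granule neurons, Calm2 was higher, Pcp4 was lower, Calm3 was slightly lower, and Calb1, Camk2a and Camk2d were near 0 in the neuroblast stages. With both libraries summed, 5 of the 9 genes had a total of 100 or more UMIs, with 10 or more on either side, for this contrast, and 3 of these 5 were higher past 1.5-fold (Calb2, Camk2b and Calm2) and 1 lower (Pcp4). Among all 8148 genes with as many UMIs, 15.2% were higher and 13.8% lower past 1.5-fold, with a median log2 ratio near 0. Stages are clusters of the same cells, so these contrasts describe the clusters and carry no test. The 9 genes were also chosen with earlier results of these data known, so their counts beside those of all genes are only descriptions.

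**Figure D1:**
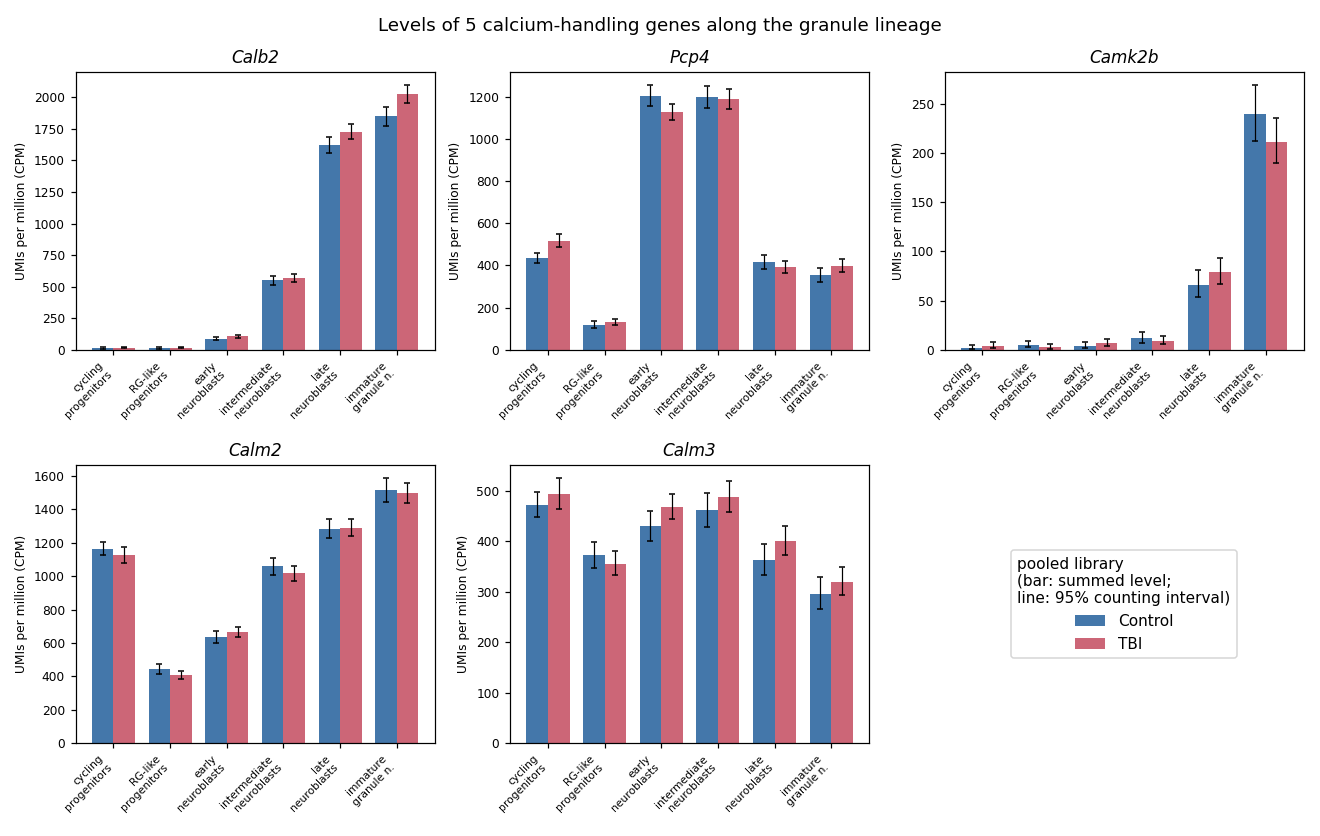
Levels of Calb2, Pcp4, Camk2b, Calm2 and Calm3 in CPM along the 6 stages, with 1 bar for the pooled Control library and 1 for the pooled TBI library and lines for the 95% counting interval. Calb2 reaches 1848 CPM in Control and 2026 in TBI immature granule neurons, Pcp4 is highest in early and intermediate neuroblasts, and the bars of both libraries stand close to each other at every stage.

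Calb2 (ENSMUSG00000003657, GRCm38, minus strand of chromosome 8, 110137502 to 110168210) was measured along the 6 stages at 13.3, 14.5, 87.8, 550.4, 1621 and 1848 CPM in Control. In TBI the same stages held 15.7, 16.3, 105, 566, 1726 and 2026 CPM. The level was low and alike in both progenitor populations and was higher at each following stage. In both libraries together it was 6.34-fold higher in early neuroblasts than in RG-like progenitors (95% interval 4.93 to 8.26), 5.69-fold higher again in intermediate neuroblasts (5.15 to 6.31), 3.01-fold in late neuroblasts (2.86 to 3.16) and 1.16-fold in immature granule neurons (1.12 to 1.205). From early neuroblasts to immature granule neurons the ratio was 19.9 (18.1 to 21.9). Late neuroblasts were already near the level of immature granule neurons.

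The share of cells with a Calb2 UMI followed the same course. With every cell thinned to 2000 UMIs, so that depth does not set the share, 12.4% of Control and 13.7% of TBI early neuroblasts held a Calb2 UMI, and 88.6% and 89.4% of immature granule neurons did (Clopper-Pearson intervals 81.6 to 93.6 and 84.7 to 93.1). Without thinning the shares in immature granule neurons were 97.6% and 97.8%. In cell types that should lack Calb2, the thinned shares were 0.726% and 1.56% in oligodendrocytes and 1.99% and 0.731% in endothelial cells, and in microglia 0 of 26 Control cells (up to 13.2%) and 4 of 71 TBI cells. The median depths were 10180 and 8314 UMIs in oligodendrocytes. Single immature granule neurons held between 0 and 60 Calb2 UMIs in Control, with a median of 14, and between 0 and 50 in TBI, with a median of 12.

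Outside the granule lineage, Calb2 was high in Reln neurons, with 716 CPM in Control (610.2 to 835) and 409 in TBI (358 to 466). In immature granule neurons of low RNA content it was measured at 386 and 1100.4 CPM. Ordered by level, both libraries had immature granule neurons first and late neuroblasts second with intervals that did not overlap. Reln neurons ranked above intermediate neuroblasts in Control and below them in TBI. OPC held 28.9 CPM in Control and 104 in TBI (73.8 to 143), where the interval overlapped that of early neuroblasts and 22 of the 38 UMIs were in 1 cell. Mural cells held 2.46 and 61.1 CPM, with 123 of the 135 TBI UMIs in cells called doublets, and astroglia 4.88 and 29.2. From RG-like progenitors downward, most neighbours in the order had overlapping intervals.

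Calb1 (ENSMUSG00000028222, chromosome 4, 15881264 to 15908064, plus strand), the buffer of mature granule neurons, was all but absent from the lineage. Early, intermediate and late neuroblasts together with immature granule neurons held 11 Calb1 UMIs in Control and 4 in TBI. Reln neurons held 2 UMIs in 2 Control cells (8.78 CPM, 1.06 to 31.7) and 17 UMIs in 9 TBI cells (30.6 CPM, 17.8 to 49.1), the highest level in either library, with intervals that overlapped those of other populations. Of the 11 Control UMIs, 10 were in 2 cells that are described with Camk2a. After thinning, 0 of 123 Control immature granule neurons held both buffers, 1 held Calb1 alone and 109 held Calb2 alone. In TBI, 1 of 227 held both, 202 held Calb2 alone and 0 held Calb1 alone. Calb2 was therefore detected in most of these cells and Calb1 in almost none at this depth.

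Pcp4 (ENSMUSG00000090223, chromosome 16, 96467606 to 96525793, plus strand), the modulator of calmodulin, had the opposite course within the lineage. Along the stages it was measured at 433, 119, 1206, 1199, 417 and 353 CPM in Control. The TBI stages held 518, 130.1, 1128, 1190.5, 391 and 398 CPM. It was present in cycling progenitors, low in RG-like progenitors, high in early and intermediate neuroblasts and lower afterwards. Both libraries together gave a level 9.28-fold higher in early neuroblasts than in RG-like progenitors (95% interval 8.52 to 10.1), a ratio of 1.03 (0.990 to 1.07) from early to intermediate neuroblasts, and of 0.337 (0.316 to 0.358) from intermediate to late neuroblasts. The step from intermediate to late neuroblasts, with the lower Pcp4, was also the step with the 3.01-fold higher Calb2. Reln neurons had the highest level, 1353 CPM in Control and 1487 in TBI, and in Control its interval overlapped that of early neuroblasts. A reservation concerns the reads themselves. Of 506 windows of 91 bases, the read length, within the last 500 bases of annotated Pcp4 transcripts, 155 (30.6%) also occur in transcripts of Igsf5, which overlaps it, while the other 8 genes had 0 such windows.

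Many single cells of the lineage held both Pcp4 and Calb2. Of thinned early neuroblasts, 72.7% in Control and 66.3% in TBI held Pcp4 without Calb2, and 11.2% and 10% held both. Among intermediate neuroblasts 31.0% and 32.8% held both, and among late neuroblasts 31.6% and 33.9%. In immature granule neurons 48.8% and 53.3% held Calb2 without Pcp4, 39.8% and 36.1% held both, and only 5.69% and 4.85% held Pcp4 alone. Thinned shares of Pcp4 were 83.9% (Control) and 76.3% (TBI) in early neuroblasts against 0.544% and 1.56% in oligodendrocytes, which should lack it. A cell without a UMI at 2000 UMIs may still hold the RNA, and without thinning 74.8% of Control and 74.4% of TBI immature granule neurons held both.

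**Figure D2:**
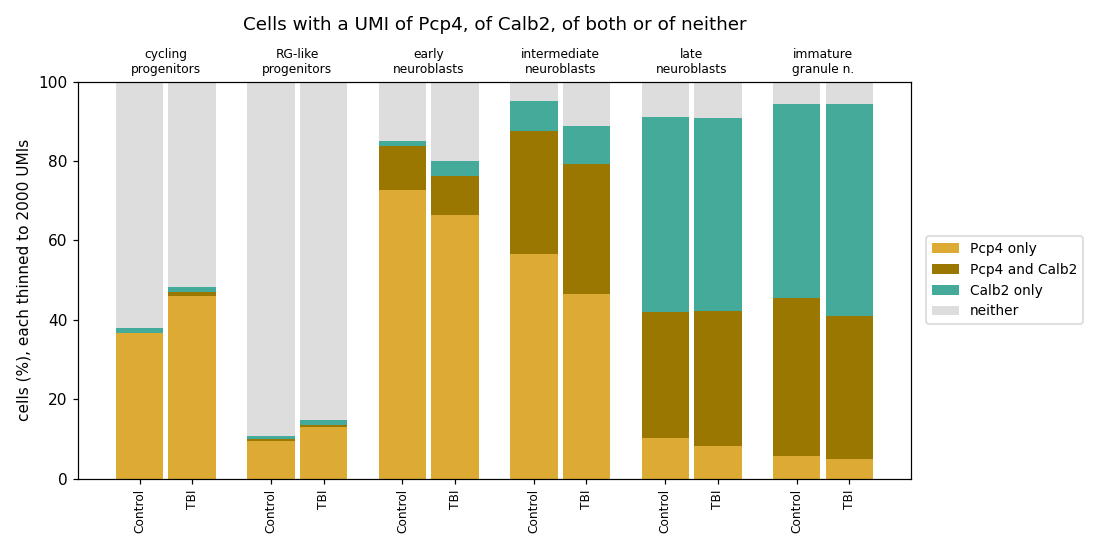
Share of cells, each thinned to 2000 UMIs, with a UMI of Pcp4 alone, Calb2 alone, both or neither, as stacked bars that sum to 100% for each population and pooled library. Pcp4 alone prevails in early neuroblasts (72.7% Control, 66.3% TBI) and Calb2 alone in immature granule neurons (48.8% and 53.3%).

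Camk2b (ENSMUSG00000057897, chromosome 11, 5969644 to 6066362, minus strand), the beta subunit of CaM kinase II, appeared later than Calb2. Its Control levels along the stages were 2.09, 4.82, 3.59, 11.8, 66.3 and 239 CPM. Its TBI levels were 3.93, 2.79, 6.67, 9.08, 78.9 and 211 CPM. It stayed under 12 CPM until intermediate neuroblasts, was 7.15-fold higher in late neuroblasts (95% interval 5.07 to 10.4) and a further 3.04-fold higher in immature granule neurons (2.62 to 3.55). From early neuroblasts to immature granule neurons the ratio was 41.2 (27.8 to 63.6), resting on 26 UMIs at the start. Of thinned immature granule neurons, 37.4% in Control and 32.6% in TBI held a Camk2b UMI, against 5.88% and 9.13% of late neuroblasts and 0.363% and 0.389% of oligodendrocytes. Most of these cells held Calb2 as well, since 32.5% and 28.2% of thinned immature granule neurons held both. Low-RNA immature granule neurons held 300.5 and 215 CPM, with intervals that overlapped those of immature granule neurons in both libraries. In Control, however, 80 of the 286 Camk2b UMIs of immature granule neurons were in 2 cells, described with Camk2a, so that level rests in part on them. Calb2, Calm2, Calm3 and Pcp4 were lower in the low-RNA cells past 1.5-fold, with 4 of 5 genes lower and 28.1% of all 4578 genes lower in that contrast.

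Among the stages Pcp4 was highest in early and intermediate neuroblasts and Camk2b in immature granule neurons. The sequences before the starts of these genes differ too, and a link to their levels was not tested. The RefSeq promoter table (GRCm38.p6) held 4 of the 9 genes, and the 250 bases upstream of the start are shown for these 2 members, read in the direction of transcription, with each GGGCGG match (a GC box) in capitals. The Pcp4 stretch is chr16:96467356-96467605 on the plus strand and the Camk2b stretch chr11:6065749-6065998 on the minus strand. The RefSeq start of Camk2b lies inside the gene span given above, which comes from GENCODE, so this stretch is upstream of the RefSeq start only and falls within the GENCODE gene.
Pcp4: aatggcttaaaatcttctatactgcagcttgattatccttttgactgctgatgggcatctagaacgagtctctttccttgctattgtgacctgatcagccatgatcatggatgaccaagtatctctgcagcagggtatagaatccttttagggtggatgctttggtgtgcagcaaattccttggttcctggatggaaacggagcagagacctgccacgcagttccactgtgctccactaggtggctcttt
Camk2b: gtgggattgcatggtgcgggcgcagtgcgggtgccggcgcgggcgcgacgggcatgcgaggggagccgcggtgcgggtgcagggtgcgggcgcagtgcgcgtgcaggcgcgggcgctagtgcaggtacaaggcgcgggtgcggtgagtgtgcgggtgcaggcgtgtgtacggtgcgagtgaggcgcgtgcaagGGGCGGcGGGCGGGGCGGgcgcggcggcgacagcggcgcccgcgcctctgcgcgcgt
On both strands, GGGCGG, TGACGTCA (a cyclic AMP response element) and CAGCTG (an E-box) were searched. The Camk2b stretch held 3 GGGCGG matches, of which the last pair shares a base, and the Pcp4 stretch held 0. GGGCGG occurred in 32.7% of 32851 promoter stretches of the same length. The other 2 letter strings, found in 1.55% and 13% of stretches, had 0 matches in either gene. Camk2d also held 3 GGGCGG matches and Calm3 held 0, and these matches are letters in a window and not shown binding sites.

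Camk2a (ENSMUSG00000024617, chromosome 18, 60925618 to 60988152, plus strand), the alpha subunit, was near 0 in nearly every cell. Early, intermediate and late neuroblasts held 1, 1 and 2 Camk2a UMIs in Control and 7, 0 and 0 in TBI. Immature granule neurons held 81 UMIs in Control and 1 in TBI, but 80 of the 81 Control UMIs were in 2 of the 123 cells, with 41 and 39 UMIs. The same 2 cells held all 10 Calb1 UMIs of the Control immature granule neurons, 80 of the 286 Camk2b UMIs and 29 of the 46 Camk2n1 UMIs. They also held 41 UMIs of Nrgn (neurogranin, a calmodulin-binding protein of mature neurons), 33 of Prox1 (a transcription factor of granule neurons) and 24 of Slc17a7 (a vesicular glutamate transporter), and 0 of Calb2, Dcx and Reln. They had 12999 and 16947 UMIs in all and were not called doublets. The cells were singled out here after their values were seen, and whether they belong with this population was not tested beyond other clusterings. Under 5 of 6 other clusterings they left this population, 1 of them for the OPC cluster or out of the kept cells and the other for the Reln neurons. The Control levels of Calb1 and Camk2a in immature granule neurons thus rest all or nearly all on 2 cells that other clusterings placed elsewhere. Those of Camk2b and Camk2n1 rest on the same cells in part, and for these genes ratios are given with and without the 2 cells.

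**Figure D3:**
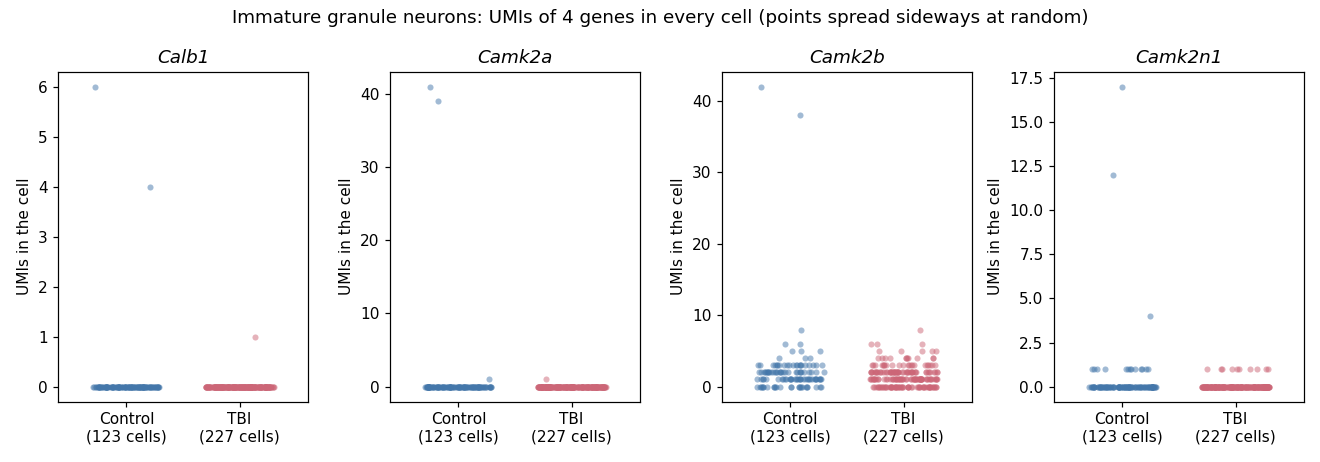
UMIs of Calb1, Camk2a, Camk2b and Camk2n1 in each immature granule neuron, 1 point per cell, for the 123 Control and 227 TBI cells, with points spread sideways at random. The same 2 Control cells stand far above the rest with 41 and 39 Camk2a UMIs, and no TBI cell holds more than 1 Camk2a UMI.

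Elsewhere Camk2a was sparse as well. In OPC all 13 Control UMIs were in 1 cell, which left the others at 0, and TBI OPC held 0. RG-like progenitors held 21 Control UMIs in 10 cells and 12 TBI UMIs in 7 cells. In microglia 13 UMIs were spread over 10 of 88 TBI cells (29.0 CPM, 15.4 to 49.6), and the 38 Control microglia held 0 (up to 19.5 CPM). These intervals overlap, which does not decide whether the levels differ. No ratio was computed where a library held 0 UMIs, so a difference was not tested.

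Camk2d (ENSMUSG00000053819, chromosome 3, 126596302 to 126846326, plus strand), the delta subunit, marked cells outside the neuronal lineage. Mural cells held 208 CPM in Control and 203 in TBI, astroglia 156 and 162, microglia 100.3 and 132, and endothelial cells 65.3 and 69.8. Reln neurons held 48.3 and 61.3 CPM, above oligodendrocytes with 24.0 and 26.5 and low-RNA astroglia with 25.5 and 35.6. The granule lineage held 9 UMIs in Control (1.45 CPM, 0.663 to 2.75) and 22 in TBI (2.62 CPM, 1.64 to 3.97). The intervals of mural cells and astroglia overlapped in TBI and not in Control, and those of every population outside the stages, low-RNA immature granule neurons left aside, lay above those of the granule lineage. Camk2b was low in 2 of the populations with much Camk2d, with 2.46 and 7.24 CPM in mural cells and 8.43 and 3.85 in astroglia. Reln neurons held both subunits, with Camk2b at 96.6 and 70.3 CPM. In Control OPC Camk2d was at 48.2 CPM and Camk2b at 116, but 19 of the 24 Camk2b UMIs were in 1 of 27 cells. In TBI OPC Camk2d was at 60.4 CPM and Camk2b at 16.5, from 6 UMIs.

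Camk2n1 (ENSMUSG00000046447, chromosome 4, 138454314 to 138460123, plus strand), the inhibitor, was highest in glial and vascular populations. Low-RNA astroglia had the highest level, 414 CPM in Control and 362 in TBI, and next came astroglia with 193 and 219 and microglia with 264 and 118. Mural cells, endothelial cells, OPC and oligodendrocytes lay between 67.2 and 118 CPM. The stages up to late neuroblasts held at most 13.1 CPM. In Control immature granule neurons the level was 38.5 CPM with the 2 cells rich in Camk2a and 14.6 without them, and in TBI it was 6.25. Over the 30 points of 15 populations and 2 libraries, log2 levels of Camk2n1 and Camk2d had a Pearson correlation of 0.700, and those of Camk2n1 and Pcp4 of -0.760. These points share libraries and depth, so the correlations are descriptions.

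**Figure D4:**
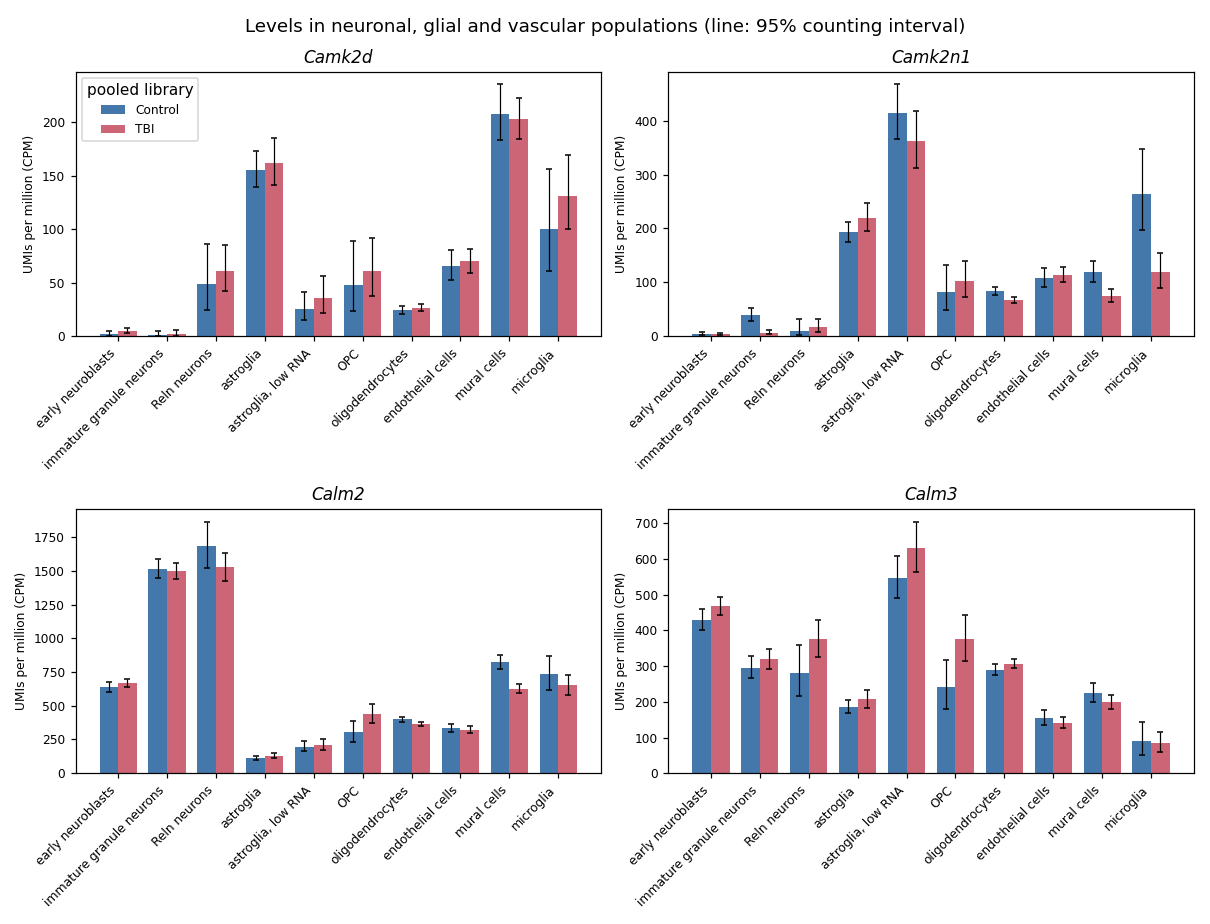
Levels of Camk2d, Camk2n1, Calm2 and Calm3 in CPM in 10 neuronal, glial and vascular populations, with a bar for each pooled library and lines for the 95% counting interval. Camk2n1 stands high in glial and vascular cells, and Camk2d in mural cells and astroglia but lower in oligodendrocytes. Both are near 0 in early neuroblasts, while Calm2 is highest in immature granule neurons and Reln neurons.

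Calm2 (ENSMUSG00000036438, chromosome 17, 87433412 to 87446935, minus strand) and Calm3 (ENSMUSG00000019370, chromosome 7, 16915379 to 16924114, minus strand) encode the same protein. From the annotated coding sequences of 450 bases, the translated proteins of 149 residues differed at 0 positions, although the coding bases were only 82.7% identical. The first calcium-binding loop (residues 21 to 32, counted from the start methionine) shows how this comes about. Capitals mark the 7 bases at which the genes differ, all at the last position of a codon.
Calm2: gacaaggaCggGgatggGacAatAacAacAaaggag
Calm3: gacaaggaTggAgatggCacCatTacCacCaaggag
Of the 360 windows of read length in each coding sequence, 0 were shared by these genes. Reads of these libraries come from 3′ ends, so the last 500 bases of the transcripts matter for the counts. There, 0 of 663 Calm2 and 0 of 810 Calm3 windows of 91 bases also occurred in another gene.

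Despite the shared protein, Calm2 and Calm3 followed different courses. Calm2 levels along the stages were 1163, 442, 637, 1058, 1285 and 1515 CPM in Control. In TBI they were 1125, 408, 667, 1017, 1290.4 and 1499 CPM. Calm2 was high in cycling progenitors, lowest in RG-like progenitors and then higher at each stage, with a ratio of 2.30 (2.20 to 2.41) from early neuroblasts to immature granule neurons. Calm3 levels were 472, 372, 429, 461, 362 and 295 CPM in Control. In TBI they were 493, 355, 467, 487, 400.3 and 319 CPM. Calm3 had a narrower range over the stages than Calm2, and its ratio from early neuroblasts to immature granule neurons was 0.684 (0.632 to 0.741), below 1 but short of a 1.5-fold change.

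The pair also differed between cell classes. Reln neurons held 1687 CPM of Calm2 in Control and 1527 in TBI, and astroglia only 111 and 128, the lowest of all populations in both libraries. Calm3 was highest in low-RNA astroglia, at 548 and 631 CPM, where Calm2 held 197 and 212. In Control this Calm3 interval overlapped that of cycling progenitors. Astroglia not of low RNA content held only 186 CPM of Calm3 in Control and 208 in TBI. Low-RNA astroglia had a median of 2133 UMIs per cell in Control and 1354 in TBI, against 4359 and 3460 in astroglia. Mitochondrial genes took a median of 13.0% and 12.0% of their UMIs, against 9.08% and 7.79% in astroglia. The part of RNA content in the higher Calm3 level was not tested. Mural cells held 824 and 627 CPM of Calm2 and 225 and 198 of Calm3. Calm2 was found in nearly every cell of the lineage, 100% of Control and 99.6% of TBI cells without thinning.

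Between the libraries, the 9 genes in 15 populations gave 135 pairs, of which 55 had a total of 100 or more UMIs, with 10 or more from either library. Over these 55 the median log2 ratio of TBI to Control was 0.07, with 4 pairs higher and 3 lower past 1.5-fold. Over all genes and populations with enough UMIs, 2.32% of pairs were higher and 1.89% lower past 1.5-fold. In the 6 stages none of the 24 pairs passed 1.5-fold in either direction, where 1.19% of all pairs of gene and stage were higher and 1.48% lower, and neither did the summed lineage except for Camk2n1. Of the 4 higher pairs, 2 were lost without the cells called doublets, both in oligodendrocytes, where too few UMIs were then left for the limit of 100.

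**Figure D5:**
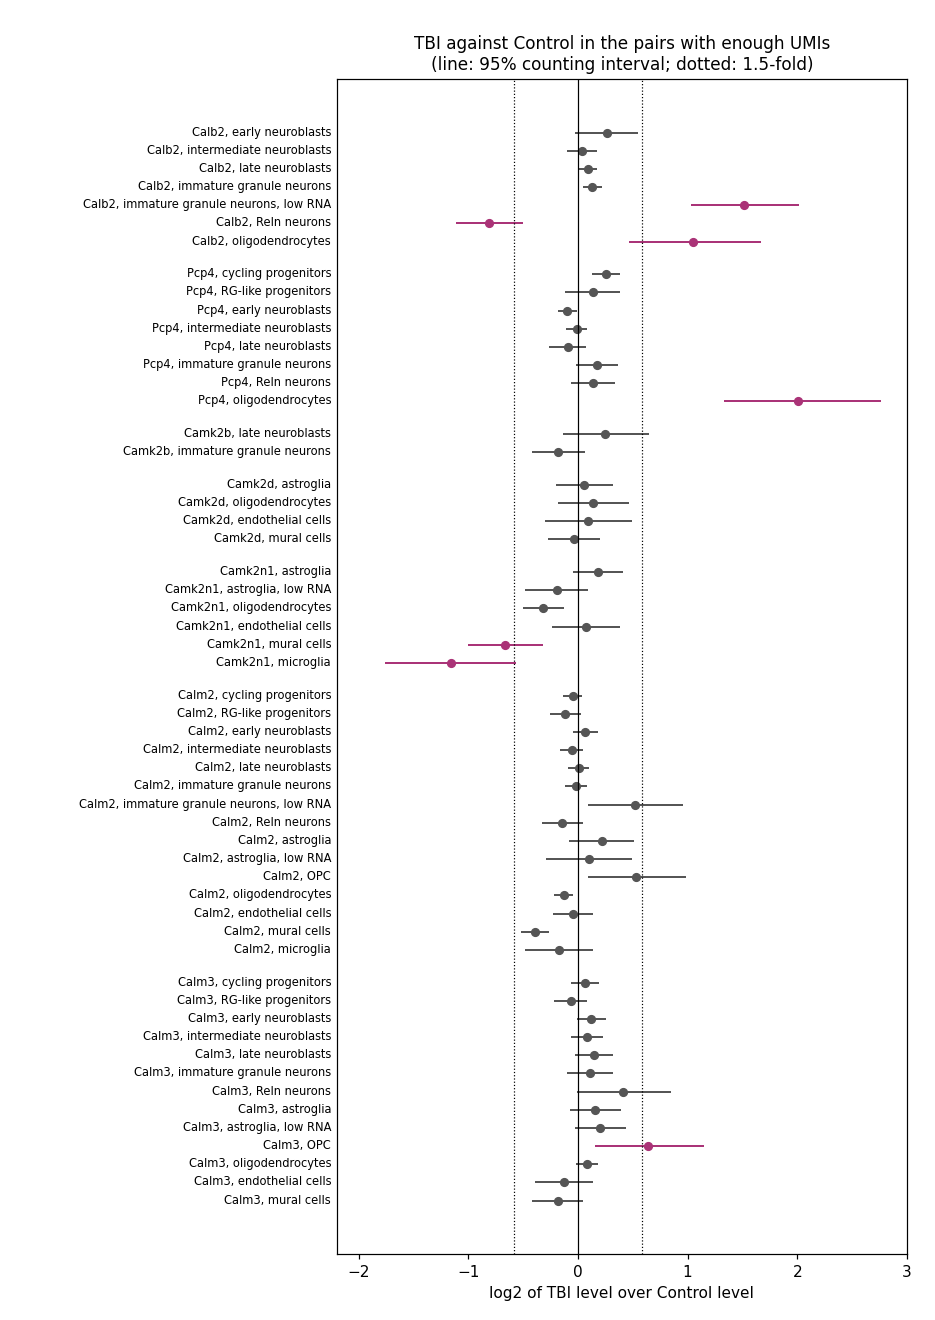
Log2 ratio of the TBI to the Control level for the 55 pairs of gene and population with enough UMIs, as points with lines for the 95% counting interval and dotted lines at 1.5-fold. The stage populations lie close to 0, and the 7 pairs past 1.5-fold are drawn in purple.

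Within the stages the 24 ratios lay between 0.883, for Camk2b in immature granule neurons, and 1.199 (95% interval 0.991 to 1.46), for Calb2 in early neuroblasts. Next highest were Pcp4 in cycling progenitors and Camk2b in late neuroblasts, the latter at 1.19 (0.914 to 1.56). Calb2 was measured at 1848 CPM in Control and 2026 in TBI immature granule neurons, a ratio of 1.10 (95% interval 1.04 to 1.16), and over the granule lineage at 905 and 944, a ratio of 1.04 (1.007 to 1.08). Pcp4 in cycling progenitors was at 433 and 518 CPM, a ratio of 1.196 (1.10 to 1.299), and in early neuroblasts the ratio was 0.935 (0.886 to 0.986). Calm2 over the lineage was at 1067 and 1050.2 CPM, a ratio of 0.984 (0.953 to 1.02), and Calm3 at 396 and 429, a ratio of 1.08 (1.03 to 1.14). These intervals are narrow because the counts are large, and they leave out the differences between cells and between animals.

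The direction of Camk2b rested on the 2 Control cells rich in Camk2a. In immature granule neurons it was at 239 CPM in Control and 211 in TBI, a ratio of 0.883 (0.752 to 1.04), and without those cells at 177 in Control, a ratio of 1.196 (95% interval 1.00 to 1.43). Over the lineage the ratio was 0.946 (0.829 to 1.08) with them and 1.17 (95% interval 1.02 to 1.35) without. Camk2n1 over the lineage was at 12.9 CPM in Control and 5.36 in TBI, a ratio of 0.416 (0.282 to 0.606), where 1.34% of all genes were lower past 1.5-fold and 0.468% higher. Without the 2 cells it was 0.649 (95% interval 0.425 to 0.989), from 51 and 45 UMIs, too few in all for the limit of 100.

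In oligodendrocytes Pcp4 was at 3.69 CPM in Control and 14.8 in TBI, a ratio of 4.03 (2.53 to 6.73), and Calb2 at 5.79 and 12.0, a ratio of 2.07 (1.39 to 3.17), in a population where 1.29% of all genes were higher past 1.5-fold. Cells called doublets held 109 of the 131 TBI and 9 of the 21 Control Pcp4 UMIs, and 70 of the 106 TBI and 26 of the 33 Control Calb2 UMIs. Without these cells the Pcp4 ratio was 1.201 (95% interval 0.569 to 2.66), from 12 and 22 UMIs, and the Calb2 ratio was 3.37 (95% interval 1.479 to 8.97), from 7 and 36 UMIs, both short of the limit of 100 UMIs. One of the 6 oligodendrocyte clusters, with 35 Control and 223 TBI cells, held 110 of the 131 TBI Pcp4 UMIs. RNA of 6 neuronal genes (Sox11, Tubb3, Igfbpl1, Stmn2, Neurod1 and Dcx) summed to 121 CPM in Control and 183 in TBI oligodendrocytes, with none of the 6 at 0. In mural cells the same sum was 21.3 CPM in Control, with 1 gene at 0, and 409 in TBI, where 123 of the 135 Calb2 UMIs lay in the 16 cells called doublets, against 3 Calb2 UMIs in Control. The part of doublets in these ratios was not tested beyond leaving them out.

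Reln neurons, the cell type with the most Pcp4, had less Calb2 in TBI. The levels were 716 CPM in the 29 Control cells and 409 in the 87 TBI cells, a ratio of 0.572 (0.465 to 0.703), where 1.72% of genes were lower past 1.5-fold. Doublet calls fell on 1 Control and 16 TBI cells, and without them the ratio was 0.633 (95% interval 0.507 to 0.790). Without the 2 highest cells of each library it was 0.623 (95% interval 0.486 to 0.801). The share of thinned cells with a Calb2 UMI was 54.2% (32.8 to 74.4) in Control and 44.9% (33.6 to 56.6) in TBI, and these intervals overlap. Pcp4 in these cells had a ratio of 1.10 (0.963 to 1.26), and 1.28 (95% interval 1.11 to 1.47) without doublets.

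In low-RNA immature granule neurons Calb2 was at 386 CPM in Control, from 45 UMIs, and 1100.4 in TBI, a ratio of 2.85 (2.05 to 4.03). Here 43.1% of the 288 genes with enough UMIs were higher past 1.5-fold and the median gene had a log2 ratio of 0.48, so a ratio past 1.5 was common in this population. The median gene had a log2 ratio of 0.15 in OPC and 0.11 in mural cells, and near 0 in the other populations. In the low-RNA immature granule neurons, mitochondrial genes took a median of 25.7% of UMIs in Control and 20.7% in TBI cells. Their part in the Calb2 ratio was not tested. In OPC Calm3 was at 241 and 376 CPM, a ratio of 1.56 (1.12 to 2.20), with 17.8% of genes higher past 1.5-fold. The sum of the 6 neuronal genes in OPC was 178 CPM in Control, with 3 of the 6 at 0, and 878 in TBI, and its part in this ratio was not tested.

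With enough UMIs, Camk2n1 was lower in TBI past 1.5-fold in 2 populations, mural cells and microglia. In mural cells it was at 118 CPM in Control and 74.7 in TBI, a ratio of 0.633 (0.503 to 0.797), where 4.81% of genes were lower and 6.71% higher past 1.5-fold. The 6 mural clusters took different shares of the libraries. A cluster with 39 of the 281 Control but 257 of the 706 TBI cells held 63.0 CPM in Control and 76.8 in TBI, the opposite direction, and a cluster with 51 Control and 41 TBI cells held 164 and 156. The part of this shift in clusters was not tested. A further mural cluster, of 12 Control and 19 TBI cells, was led by Spp1, Dcn and Slc6a13 and had 0 mural markers among its 10 leading genes, and without it the ratio was 0.639 (95% interval 0.504 to 0.811). Calm2 in mural cells was at 824 and 627 CPM, a ratio of 0.760 (0.701 to 0.826). In microglia Camk2n1 was at 264 CPM in 38 Control cells and 118 in 88 TBI cells, a ratio of 0.447 (0.298 to 0.672), with 5.23% of genes lower past 1.5-fold. Both microglia clusters had the lower level in TBI, 283 against 119 and 165 against 113 CPM, the second from 5 UMIs in each library. Without the 2 highest cells of each library the microglia ratio was 0.543 (95% interval 0.339 to 0.878). In oligodendrocytes Camk2n1 was at 83.7 and 67.2 CPM, a ratio of 0.803 (0.711 to 0.908), below 1 but short of 1.5-fold.

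A wider list of 33 calcium genes (other CaM kinase, inhibitor, buffer, calcineurin and calcium sensor genes) was followed in the same way. This list was likewise chosen with earlier results of these data known, so its counts beside those of all genes are only descriptions. From early neuroblasts to immature granule neurons, 10 of the 18 with enough UMIs were higher past 1.5-fold and 3 lower, with a median log2 ratio of 0.71, against 15.2% and 13.8% of all genes for this contrast. The 3 lower were Calr (calreticulin, a buffer of the endoplasmic reticulum), Rcan1 (a regulator of calcineurin) and Dapk1 (a death-associated kinase), and they are named because they were so few. Ppp3ca, a catalytic subunit of the calmodulin-dependent phosphatase calcineurin, was at 202 CPM in early neuroblasts and 521 in immature granule neurons (2.58-fold, 2.38 to 2.80), and Ppp3cb, another catalytic subunit, at 137 and 183 (1.33-fold). The kinase Camk1 was 2.50-fold higher (2.06 to 3.05) and Dclk1, a doublecortin-like kinase, had a ratio of 0.730 (0.660 to 0.806). Camk2n2, the second inhibitor of CaM kinase II, was 1.83-fold higher (1.53 to 2.18) and stood at 83.7 and 104 CPM in Control and TBI immature granule neurons. The neuronal calcium sensors Ncs1 and Hpcal1 were 2.47-fold and 2.37-fold higher, and the buffer Necab3 2.85-fold. Calr had a ratio of 0.423 (0.389 to 0.460), and Pvalb (parvalbumin) had 0 UMIs in the lineage.

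Between the libraries, 158 of the 495 pairs of the wider list had enough UMIs, with 5 higher and 6 lower past 1.5-fold and a median log2 ratio of 0.05, against 2.32% higher and 1.89% lower over all pairs of gene and population. Within the stages 1 pair passed, Gap43 (a calmodulin-binding growth cone protein) in cycling progenitors, at 38.1 CPM in Control and 60.8 in TBI, a ratio of 1.599 (1.23 to 2.09), where 1.32% of genes were higher. Over the summed lineage 22 had enough UMIs, of which 0 were higher and 3 lower past 1.5-fold, where 1.34% of all genes were lower. These were Camk1d (0.632, 0.419 to 0.9497), Camkk2 (0.584, 0.386 to 0.878) and Nrgn (0.440, 0.304 to 0.632). Of the 84 Control Nrgn UMIs, 41 were in the 2 cells rich in Camk2a, so the Nrgn ratio rests in part on them. A ratio of Nrgn without those cells is not given here. With those cells included, Nrgn was at 56.9 CPM in Control immature granule neurons and at 16.3 in TBI.

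For each gene the 3 genes with the most similar pattern were sought among 13029, by the Pearson correlation of log2(CPM + 10) over the 30 points of population and library. For Calb2 they were Hecw1 (0.974), Nyap2 (0.964) and Zfp385b (0.958), and for Camk2b the first 2 were Elmod1 (0.969) and Lrrtm1 (0.955). Pcp4 was most like Lrp11 (0.923), Stmn3 (0.916) and Chgb (0.913). The pattern of Camk2d was nearest to Diaph2 (0.935), Rrbp1 (0.906) and Il6st (0.903), and that of Camk2n1 to Serpine2 (0.857), Kif1c (0.856) and Nudt7 (0.856). Calm2 went with H3f3b (0.870), Eef2 (0.849) and Ccni (0.831), the first of these a histone gene and the second a translation elongation factor. Calm3 went with Mrpl28 (0.921), Atp5f1 (0.918) and Atp5o (0.905), mitochondrial ribosome and ATP synthase genes. Both sparse genes had weaker or less certain neighbours, Clstn2 (0.867), Golga7b (0.862) and Dmtn (0.860) for Calb1 and Ryr2 (0.733), Grin2a (0.711) and Gm10260 (0.687) for Camk2a, and their levels rest on few UMIs. Among the 9 genes themselves the highest correlation was that of Calb2 and Camk2b, 0.795, while Calm2 and Calm3 reached 0.166.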

How the data were processed

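The data are single-cell 3′ RNA libraries of sorted GFP-positive dentate gyrus cells, 1 per condition. The authors made the deposited counts with Cell Ranger 3.0.2 on GRCm38/mm10, and each count is the number of UMIs of a gene in a cell barcode, not normalized and from before the filter that the study applied to RNA content. The deposited barcode and gene lists only name columns and rows, and 0 columns belonged to samples of another series. The condition of each table came from barcodes that the study lists by condition.

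Cells with at least 200 genes and a log UMI total within 3 median absolute deviations of the library median were kept. Doublets were called by Scrublet (scanpy 1.11.5, expected rate 0.8% per 1000 cells) and left in. Following the methods of the study, cells were integrated and clustered in Seurat 5.3.0 (R 4.3.3) on 2000 variable genes, with 20 dimensions, 20 components and resolution 3.0 for all cells, and 30, 16 and 0.8 for the lineage. A cluster took, among names with a mean standardized marker level within 0.5 of the best, the one with the most markers among its 10 leading genes, and where these tied, also at 0, the one of higher level. It stayed unnamed if fewer than 3 markers were detected in 10% of cells, if the level was under 0.5, or if it was low in UMIs with 0 markers among the leading genes. Clusters of astroglia, oligodendrocytes and mural cells were so named with 0 markers among the leading genes. This naming rule was set after the clusters had been seen.

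UMIs were summed by population and library and scaled to CPM without Malat1. Levels have exact Poisson intervals, shares Clopper-Pearson intervals, and ratios an interval from the exact conditional binomial. Ratios were counted past 1.5-fold for totals of 100 or more UMIs with 10 or more from either library. With 1 library per condition no test was made. The code was tested on simulated counts with known changes. Sequences came from GENCODE M21 transcripts and RefSeq tables. Python 3.11.15, numpy 2.4.6, scipy 1.17.1 and matplotlib 3.10.9 were used.

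The 9 genes, the wider list and the markers were chosen with earlier results of these data known. All 9 genes are named, with the 3 most correlated genes of each, except that 1 of those of Camk2b is not reported here. From the wider list, genes past 1.5-fold in the lineage or among the 2 highest of their role in immature granule neurons were named. The 12 planned and 4 added alternatives covered scaling, thinning, cell filters, doublets, clustering, count limits and fold limits. The added ones (leaving out the 2 Control cells rich in Camk2a, leaving out the clusters named with 0 markers among the leading genes, leaving doublets out of the populations as clustered, and adding low-RNA and unnamed clusters to their stages) were chosen after seeing the data.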

Additional observations from a re-analysis of the deposited data

How the results depend on the processing

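No paired analysis was possible because mice of the same group were pooled ahead of capture, and leaving out a replicate was not possible for the same reason. The count of gene and population pairs past 1.5-fold and higher in TBI was 4, and it was 2 with cells thinned to 2000 UMIs, with doublets removed before clustering or with doublets left out of the populations as clustered, and 24 without a minimum of UMIs. The count lower in TBI was 3, and it was 18 without a minimum of UMIs and 1 with a fold limit of 2. The number of pairs compared and the share over all genes under these alternatives are not given here, so these counts are descriptions only. Of 79 log2 ratios of TBI to Control over the granule lineage under the alternatives, 68 stayed within the interval of the main value. Calb2 changed sign once, from 0.06 to -0.0134 without integration. With cells thinned to 2000 UMIs, Calb2 went to 0.18 and Pcp4 from -0.02 to -0.13, both outside the interval of the main value. Camk2b went from -0.08 to values between 0.17 and 0.25 under the 6 alternatives in which both Control cells rich in Camk2a left the lineage, and to 0.01 with every cell weighted equally. Camk2n1 ranged from -1.40 to -0.47 against -1.27. Of 64 log2 ratios of immature granule neurons to early neuroblasts, 57 stayed within the interval and 0 changed sign, with Calb2 between 4.05 and 4.34, Camk2b between 5.18 and 5.51 and Pcp4 between -1.70 and -1.58. Calb1, Camk2a and Camk2d had too few UMIs for these ratios, as did Camk2n1 for the stage contrast, and without integration no cluster of immature granule neurons of full RNA content was found.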
